A study of Mus musculus with 2 samples.

Results

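The genes described here drive a dividing cell through DNA replication and mitosis. The list was fixed by name at 40 genes, 11 for DNA replication and 29 for mitosis, and a probe counted as a member where its gene symbol in the platform's annotation equalled a listed name. Of the 40 genes 37 had a probe, 1 each, among 19321 named genes on the array: 11 of the DNA replication genes and 26 of the mitosis genes. The expression of Ccnb1, Foxm1 and Kif2c was not analysed here; Ccnb1 and Kif2c enter the promoter counts only. The study compared the gastrocnemius, a calf muscle, of female mice aged 10 weeks that all carried R26-DTA, a diphtheria toxin A gene at the Rosa26 locus. One group, Pdgfra-CreER:R26-DTA, also carried a tamoxifen-activated Cre under the Pdgfra promoter, so that tamoxifen switches the toxin on where that promoter is active, as in mesenchymal progenitors; it is called depleted here. The other group, wild type:R26-DTA, held littermates without the Cre and is called control. Both received tamoxifen into the peritoneum on 5 days from 9 weeks of age, and the muscle was taken 2 days after dosing ended and frozen. Each group held 1 array of total RNA, and whether that RNA came from 1 animal or several is not given in the sources used here, so there is no spread between animals and no test, and animal, array and genotype cannot be told apart. The control lacked CreER, so an effect of CreER itself cannot be told apart from depletion either.

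A cell that commits to divide first loads the MCM helicase onto its replication origins with the help of Cdc6 and Cdt1, makes nucleotides with Rrm2 and Tyms, and copies its DNA with the polymerase clamp Pcna. It then builds up cyclins A and B, which switch on the kinase Cdk1, and the mitotic kinases, kinesin motors and kinetochore proteins separate the chromosomes until Cdc20 and Ube2c, partners of the anaphase-promoting complex, direct the cyclins to destruction. Myofibres have left the cell cycle, and the cells of adult muscle that can divide are the mononuclear cells around and between them. In bulk muscle, fewer cells of a type and less RNA per cell cannot be told apart.

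The replication and mitosis genes carry different promoter motifs, and the sequences below show them. Mitosis genes are known for a cell cycle homology region, TTTGAA or TTCGAA, often near CCAAT boxes, through which the DREAM and MuvB complexes keep them silent in resting cells and drive them in dividing ones; replication genes are known for E2F sites. RefSeq promoters (GRCm38.p6, 250 bases before to 50 after the start) were matched for 34 of the 40 genes. The homology region, searched on both strands, was held by 22 of 27 promoters of 24 mitosis genes (81.5%), by 2 of 11 promoters of 10 DNA replication genes (18.2%) and by 19.2% of all 32851 promoters. An E2F motif (TTTCCCGC, TTTGGCGC, TTTCGCGC, TTTGCCGC, TTCCCGCC or TTGGCGCC, on both strands, some of which overlap) was held by 6 of 11 promoters of DNA replication genes (54.5%), by 2 of 27 of mitosis genes (7.41%) and by 4.45% of all. CCAAT was held by 77.8% of promoters of mitosis genes, 72.7% of DNA replication genes and 37.4% of all. Stretches of 7 promoters follow, 5′ to 3′ on the gene's strand. The first 3 belong to mitosis genes with large differences between the arrays (Cdk1, Ccnb2, Top2a), the next 2 to mitosis genes with smaller ones (Cdc20, Ube2c), and the last 2 to MCM subunits. Capitals mark the homology region (read TTTGAA or TTCGAA, or TTCAAA on the opposite strand) and the CCAAT box (or ATTGG) in the first 5, and the E2F motif and the CCAAT box in the last 2. They lie at chr10:69352913-69353032 (minus strand), chr9:70421535-70421654 (minus), chr11:99024190-99024309 (minus), chr4:118437344-118437443 (minus), chr2:164769829-164769928 (plus), chr1:128359706-128359835 (minus) and chr8:75109339-75109508 (plus). Each ends at the base before the annotated start, except Ccnb2, whose homology region lies just past it and whose stretch runs 20 bases into the gene.
Cdk1: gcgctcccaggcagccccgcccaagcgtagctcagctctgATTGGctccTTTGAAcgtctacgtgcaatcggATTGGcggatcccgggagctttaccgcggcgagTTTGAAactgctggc
Ccnb2: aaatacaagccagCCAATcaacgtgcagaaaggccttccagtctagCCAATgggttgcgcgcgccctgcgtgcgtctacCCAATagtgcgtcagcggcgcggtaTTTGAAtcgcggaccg
Top2a: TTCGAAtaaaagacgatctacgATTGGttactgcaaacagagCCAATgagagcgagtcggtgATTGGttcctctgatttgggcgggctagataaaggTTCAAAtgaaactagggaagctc
Cdc20: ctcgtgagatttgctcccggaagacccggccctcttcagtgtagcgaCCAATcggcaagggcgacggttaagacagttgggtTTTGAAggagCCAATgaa
Ube2c: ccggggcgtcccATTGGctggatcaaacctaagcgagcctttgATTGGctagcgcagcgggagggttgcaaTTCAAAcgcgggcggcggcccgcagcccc
Mcm6: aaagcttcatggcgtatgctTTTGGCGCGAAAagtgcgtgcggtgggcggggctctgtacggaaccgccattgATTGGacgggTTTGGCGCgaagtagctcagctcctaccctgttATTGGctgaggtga
Mcm5: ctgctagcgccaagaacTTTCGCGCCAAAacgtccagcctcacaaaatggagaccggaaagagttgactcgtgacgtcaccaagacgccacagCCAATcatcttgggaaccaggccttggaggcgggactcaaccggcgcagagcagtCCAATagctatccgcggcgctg

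Values are given on 3 scales. The spot median is the scanner's brightness of a spot, not normalized between arrays. The processed value is the authors' own intensity, which sets blank spots near 0 and scales each array to a median of 25, and an empty processed value means a spot near the blanks. The offset-corrected log2 ratio is depleted over control after normexp background correction with an offset of 50 and quantile normalization, and draws dim probes toward 0. Blank spots averaged 36.26 on the control and 36.97 on the depleted array, and the median probe was 53.3 and 59.8, so a probe lay above background past 37.4 and 38.5. The spread between spots gives a technical error only: 24 repeat spots of a positive control give a log2 ratio of 2 single spots an SD of 0.19, and blank spots (n = 2736) give a difference of processed values near background an SD of 1.04. The level of 1 probe was not set against that of another. Pdgfra, the gene whose promoter drives the Cre, had processed values of 273.1 in the control and 116.6 in the depleted muscle, and the myofibre markers Acta1, Ckm, Myh4, Tnnt3 and Mb had processed values on both arrays that summed to 242832 and 175213.

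Most cell cycle genes were higher in depleted than in control muscle, and in processed values the cyclin genes Ccna2 and Ccnb2, Top2a and Cdk1 were 3.0-fold to 4.92-fold higher. Aurka stood against them, 3.30-fold lower. In processed values 20 of 23 mitosis genes with both arrays measured were higher and 3 lower, with a median log2 ratio of 0.62. Prc1 and Cep55 count as higher there but were not above background in control, so their direction carries no weight. For the DNA replication genes 9 of 11 were higher and 2 lower, with a median of 0.25. All genes had a median of -0.01, with 48.1% higher. At least 2-fold higher were 6 of 23 mitosis genes and 2 of 11 DNA replication genes, against a background of 2.91% of 17969 genes. At least 2-fold lower was Aurka alone, against 1.98% of genes. The 6 mitosis genes are Cdk1, Ccna2, Ccnb2, Top2a, Birc5 and Cep55, and Cep55 was not above background in control. Ccna2, Ccnb2 and Top2a lay below the brightest negative control spot in control, which limits what can be said of their folds. In offset-corrected log2 ratios 0 of 37 members reached 2-fold. Every one of these counts rests on 1 array per group.

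**Figure D1:**
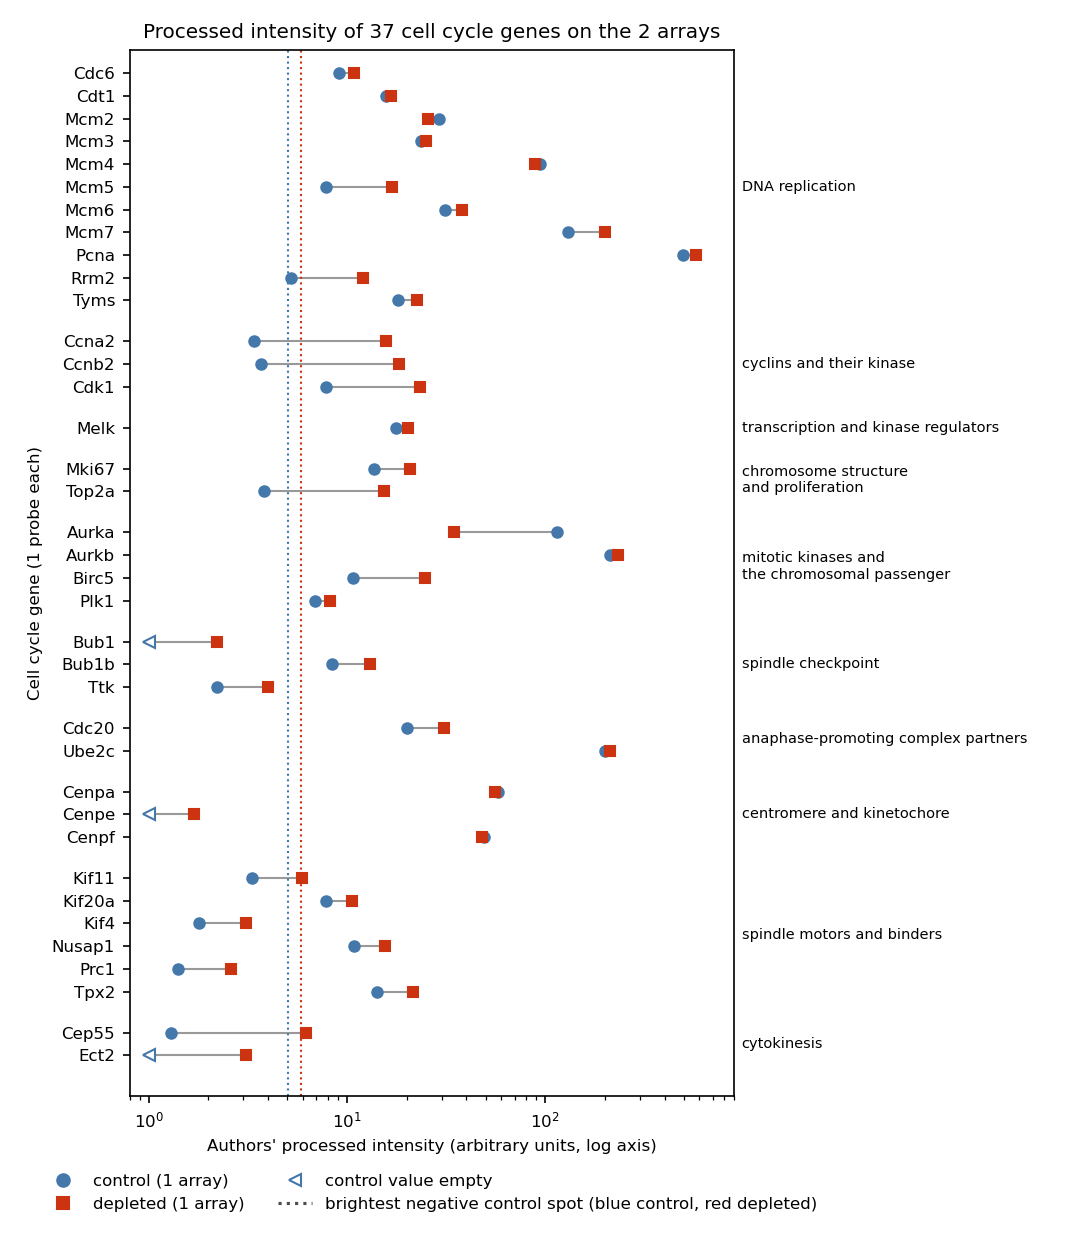
Authors' processed intensity (log axis) of the 37 cell cycle genes on the control array (blue circles) and the depleted array (red squares), grouped by role, with 1 probe and 1 array per point; open triangles mark an empty control value, placed at the left edge, and dotted lines mark the brightest negative control spot of each array. Ccna2, Ccnb2, Top2a and Cdk1 lie between 3.4 and 7.8 in control and between 15.4 and 23.4 in depleted muscle, and Aurka lies at 114.9 in control and 34.8 in depleted muscle.

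Of the cyclins and their kinase, 3 of 3 measured members were at least 2-fold higher in processed values. Cdk1, the kinase that starts mitosis, had spot medians of 42.4 in control and 61.9 in depleted muscle and processed values of 7.8 and 23.4, 3.0-fold higher. Ccnb2, a B-type cyclin that binds Cdk1, had spot medians of 39.1 and 56.3 and processed values of 3.7 and 18.2, 4.92-fold higher. Ccna2, the A-type cyclin of S phase and early mitosis, had spot medians of 39.0 and 53.7 and processed values of 3.4 and 15.8, 4.65-fold higher. All 3 were low in control and well above background in depleted muscle. On the control array Ccna2 and Ccnb2 lay below the brightest of 96 negative control spots (40.2), which is 5.04 on the processed scale. Set against that spot, Ccnb2 was at least 3.61-fold and Ccna2 at least 3.12-fold higher. The offset-corrected log2 ratios were 0.31 for Cdk1, 0.31 for Ccnb2 and 0.27 for Ccna2, none of them at 2-fold.

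Top2a, the topoisomerase that untangles replicated chromosomes, had spot medians of 39.3 and 53.3 and processed values of 3.8 in the control and 15.4 in the depleted muscle, 4.05-fold higher. It too lay below the brightest negative control spot in control, against which it was at least 3.04-fold higher. Mki67, the gene of the Ki-67 antigen used to stain cycling cells, had processed values of 13.7 and 20.8, 1.52-fold higher. Mki67 was above all negative control spots on both arrays. Melk, a kinase of dividing cells, had 17.6 and 20.2, 1.15-fold higher. The offset-corrected log2 ratios were 0.25 for Top2a, 0.14 for Mki67 and 0.05 for Melk.

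The mitotic kinases and their partner differed in direction. Aurka, the kinase of the spindle poles, had spot medians of 127 in control and 74.0 in depleted muscle and processed values of 114.9 and 34.8. It was the sole member at least 2-fold lower in processed values, and at -0.91 it had the offset-corrected log2 ratio of largest size among the members. Aurkb, the kinase of the chromosomal passenger complex, had processed values of 211.1 and 233.2, a log2 ratio of 0.14 that lies within the technical SD of 0.19. Birc5 (survivin), its partner in that complex, had spot medians of 44.7 and 63.3 and processed values of 10.7 and 24.8, 2.32-fold higher, and was above all negative control spots on both arrays. Plk1, which acts at spindle poles and kinetochores, had 6.9 and 8.2, a difference of about the size of the technical error near background. Incenp, a further subunit of the passenger complex and no member, had 14.8 and 6.2, while Cdca8 (borealin), the remaining subunit, was empty in control and at 3.3 in depleted muscle. Incenp and Cdca8 were chosen after their values were seen.

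Genes of the spindle checkpoint, which holds chromosomes until all are attached, were dim. Bub1b had processed values of 8.4 in the control and 13.1 in the depleted muscle, 1.56-fold higher. Ttk had 2.2 and 4.0, and on both arrays it lay below the brightest negative control spot. Bub1 was empty in control and at 2.2 in depleted muscle, at least 1.49-fold higher than the background limit. Of the partners of the anaphase-promoting complex, Cdc20, its activator and checkpoint target, had 20 and 30.8, 1.54-fold higher. Ube2c, its ubiquitin-conjugating enzyme, had spot medians of 193 and 263 and processed values of 199.1 and 211.7, a log2 ratio of 0.09 within the technical SD.

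The centromere and kinetochore genes with both values were nearly equal on the arrays. Cenpa, the histone variant that marks centromeres, had processed values of 57.9 and 55.9, and Cenpf, a kinetochore and nuclear matrix protein, 49.3 and 48.1. Both log2 ratios, -0.05 and -0.04, were within the technical SD. Cenpe, the kinetochore motor, was empty in control and at 1.7 in depleted muscle, 1.16 times the background limit at the least.

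Spindle motors and binders were higher in 6 of 6 measured members in processed values, against 48.1% of all genes, and 0 of the 6 reached 2-fold. Prc1 was not above background in control, so its direction carries no weight. Tpx2, which brings Aurka to the spindle, had 14.1 in control and 21.5 in depleted muscle, Nusap1, a microtubule binder, 10.9 and 15.6, and the motor Kif20a of the central spindle 7.8 and 10.6. These 3 were above all negative control spots on both arrays, with folds of 1.52, 1.43 and 1.36. Kif11, the motor that pushes the spindle poles apart, had 3.3 and 5.9, Kif4, a chromosome-bound motor, 1.8 and 3.1, and Prc1, which bundles midzone microtubules, 1.4 and 2.6. Kif4 and Prc1 lay below the brightest negative control spot on both arrays, and Kif11 on the control array. The differences of Kif4 and Prc1 were close to the technical error near background. Of the cytokinesis genes, Cep55, which recruits the abscission machinery, had spot medians of 37.3 and 43.5 and processed values of 1.3 and 6.2. Its control spot was not above background, and it was at least 4.15-fold higher than the background limit but at least 1.22-fold higher than the brightest negative control spot. Ect2, the exchange factor that places the cleavage furrow, was empty in control and at 3.1 in depleted muscle, at least 2.09-fold higher than the background limit. It was below the brightest negative control spot on both arrays, as were Bub1 and Cenpe, so against that spot none of the 3 has a lower bound.

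The DNA replication genes had a smaller median than the mitosis genes in processed values (0.25 and 0.62), but not in offset-corrected log2 ratios (0.09 and 0.06), and the difference was not tested. Of the helicase subunits, Mcm7 had spot medians of 138 in control and 249.9 in depleted muscle and processed values of 129.5 and 199.8, 1.54-fold higher; its offset-corrected log2 ratio, 0.45, was the highest of all members. Mcm5 had processed values of 7.8 and 16.8, 2.15-fold higher. Mcm6 had 31.3 and 38.1, 1.22-fold higher. Mcm2 (29.1 and 25.6), Mcm3 (23.7 and 25.1) and Mcm4 (93.8 and 89.0) differed by less than the technical SD. The 6 subunits form a single ring in the cell, and here 4 were higher and 2 lower, with a median processed log2 ratio of 0.18.

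The nucleotide enzymes and loading factors were higher in processed values in 5 of 5 members with the clamp included, against 48.1% of all genes. Rrm2, the regulated subunit of ribonucleotide reductase, had spot medians of 40.3 and 49.8 and processed values of 5.2 and 12.1, 2.33-fold higher. Tyms, thymidylate synthase, had 18.1 and 22.6, 1.25-fold higher. Pcna had 494.5 and 577.7, 1.17-fold higher, with spot medians of 425 and 652. The helicase loaders Cdc6 (9.1 and 10.8) and Cdt1 (15.7 and 16.7) were 1.19-fold and 1.06-fold higher. The log2 ratio of Cdt1, 0.09, was within the technical SD. Rrm2 and Mcm5 were the 2 DNA replication genes at least 2-fold higher in processed values. In offset-corrected log2 ratios Mcm7, Mcm5 (0.19), Pcna (0.17), Rrm2 (0.15), Mcm6 (0.11) and Tyms (0.09) were the highest.

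**Figure D2:**
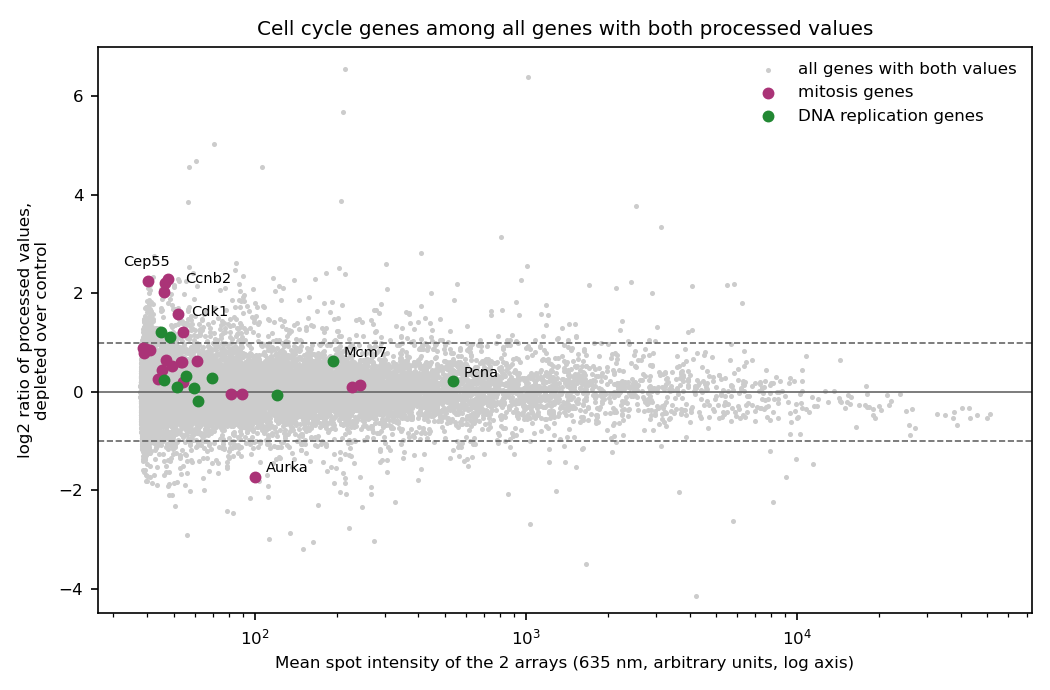
Log2 ratio of processed values (depleted over control) against the mean spot intensity of both arrays (log axis) for 17969 genes in grey, 23 mitosis genes in purple and 11 DNA replication genes in green; dashed lines mark 2-fold. Ccnb2 (2.30), Cep55 (2.25, its control spot not above background) and Cdk1 (1.58) lie in the upper part of the cloud at low intensity, Aurka (-1.72) in its lower part, and Pcna (0.22) near 0.

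The members were dim probes for the most part. Divided into 4 bands of mean intensity, equal in size, over the 18498 genes kept for comparison (above background on either array), 8 members fell in the lowest band, 20 in the next, 5 in the third and 4 in the highest. The 8 members that were at least 2-fold higher in processed values all lay in the lower pair of bands, 1 in the lowest and 7 in the next. In those bands 3.88% and 2.57% of all genes with both values were at least 2-fold higher, and the median log2 ratio of all genes was 0.00 and -0.04. The 20 members in the band above the lowest had a median of 0.61. In the third band the 5 members had a median of -0.05, and in the highest the 4 members had 0.18.

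Members with and without the motif of their group were set side by side. Among mitosis genes with both processed values, the 16 whose promoter holds the homology region had a median log2 ratio of 0.71, and the 3 with a matched promoter without it (Birc5, Nusap1, Melk) had 0.52. The order turned in offset-corrected log2 ratios, with a median of 0.05 for 18 genes with the region and 0.08 for 4 without. Prc1 and Cep55, among the 16, were not above background in control. Ccnb2, Cdk1 and Top2a hold the homology region, and so do Ube2c, Cenpa, Cenpf and Aurka. Among DNA replication genes the 6 with an E2F motif had a median processed log2 ratio of 0.27 and the 4 without one 0.27. Their offset-corrected medians were 0.07 and 0.12. A match of letters is a description of the promoter and not a bound site.

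The other lists of cell cycle genes had medians below that of the mitosis members in processed values. Of 63 other mitosis genes with both processed values 44 were higher and 19 lower, with a median log2 ratio of 0.27. The list's offset-corrected median was 0.04, and -0.01 with scaling to the median in place of quantile normalization. In processed values 10 were at least 2-fold higher and 3 lower (15.9% and 4.76%, against 2.91% and 1.98% of all genes). Many of the 10 were dim. Among the 41 genes with a processed value of at least 10 on the brighter array, 4 were at least 2-fold higher and 3 lower. The shares of all 13127 such genes were 2.78% and 1.91%. The 3 were Wee1, the kinase that restrains Cdk1 (34.7 in control and 11.0 in depleted muscle), Tubb5, a beta-tubulin (20.4 and 8.0), and Incenp. The highest offset-corrected log2 ratio of the list was that of Stmn1, a microtubule destabilizer, at 0.88 (processed values 73.1 and 184.5), and the lowest that of Wee1 at -0.44. Tubb5 and Incenp were named after their values were seen. Of 39 other replication genes 27 were higher and 12 lower, with a median of 0.14, and the 2 at least 2-fold higher were Mcm10 (1.6 and 6.7), which helps to start the replication fork, and Chaf1b (2.4 and 5.3), a histone chaperone subunit; both were dim and named after their values were seen. Pold2, a polymerase delta subunit, had the highest offset-corrected ratio (0.54) and Pola2, of the polymerase alpha-primase complex, the lowest (-0.36).

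Upstream of S phase the G1 list and the CDK inhibitors lay near 0. The E2F and pocket protein list lay close to the median of the other replication genes (0.14). G1 cyclins and kinases had a median of 0.02 over 9 genes, with Ccne1 (2.9 and 7.9, named after its values were seen) as the sole gene at least 2-fold higher. In control Ccne1 lay below the brightest negative control spot, and its offset-corrected log2 ratio was 0.11. Cdk4 had the highest offset-corrected ratio (0.23) and Cdk2 the lowest (-0.12). E2F and pocket proteins had a median of 0.16 over 15 genes, with Tfdp2, a dimer partner of E2F, at 133.7 and 345.2 and Rb1, the retinoblastoma protein, at 399.5 and 284.2. The CDK inhibitors had a median of -0.05 over 8 genes, 3 higher and 5 lower. Cdkn1a (p21), which blocks cyclin-CDK complexes and is a target of p53, had 74.5 in control and 446.9 in depleted muscle, while Cdkn1c (p57), a quiescence factor, had 229.6 and 159.2. Cdkn1a, which restrains division, and the mitotic cyclins, which carry it out, were both higher on the same array.

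**Figure D3:**
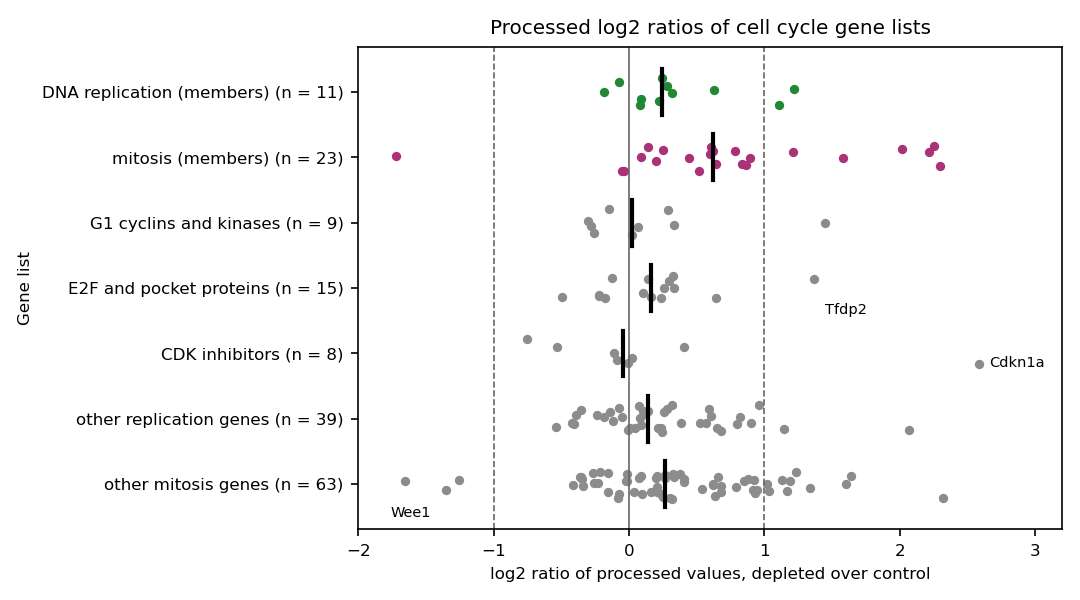
Log2 ratio of processed values (depleted over control) of each gene in 7 cell cycle lists, with the median as a black bar, n as the number of genes with both values and dashed lines at 2-fold; vertical scatter within a list is for display. The mitosis members have a median of 0.62 and the other mitosis genes 0.27, the CDK inhibitors lie around -0.05 with Cdkn1a apart at 2.58, and Wee1 is lowest among the other mitosis genes at -1.66.

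Markers of several cell types also differed between the arrays, some higher and some lower in depleted muscle. Their part in the result was not tested, and single arrays cannot show whether they vary together with the cell cycle genes. Macrophage and monocyte markers were higher in 10 of 10 genes, with a summed processed value of 3362 in control and 7549 in depleted muscle. Lyz2 (1732 and 4337) weighs most in that sum, and Csf1r (132.7 and 134.5) differed by less than the technical SD. Mesenchymal progenitor markers were lower in 10 of 10, from a sum of 9052 to 5258. Dcn (4961 and 3560) weighs most in that sum, and Dpp4 (31.5 and 30.3) differed by less than the technical SD. Endothelial markers were higher in 6 of 6, from 425.3 to 634.7, and muscle stem cell markers in 5 of 6, from 291 to 389.8, with Pax7 at 5.0 on both arrays. Cldn5 (87.5 and 202.4) and Cdh15 (72.9 and 138.4) had the largest rises in these lists, respectively. Red cell markers were lower in 4 of 4, from 31758 to 5714, and the myofibre markers in 5 of 5. That last direction depends in part on the scaling of the processed values. In offset-corrected log2 ratios Ckm was at 0.00, Tnnt3 at 0.04 and Acta1 at -0.04, with Myh4 at -0.16 and Mb at -0.36. In that setting 1 of the 5 myofibre markers was higher and 3 were lower. Lymphocyte markers summed to processed values of 37.1 and 33.4, with 3 genes higher, 1 lower and Cd3g empty on both arrays. Neutrophil markers summed to 326 and 302, with 1 gene higher, 2 lower and Mpo empty in control.

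**Figure D4:**
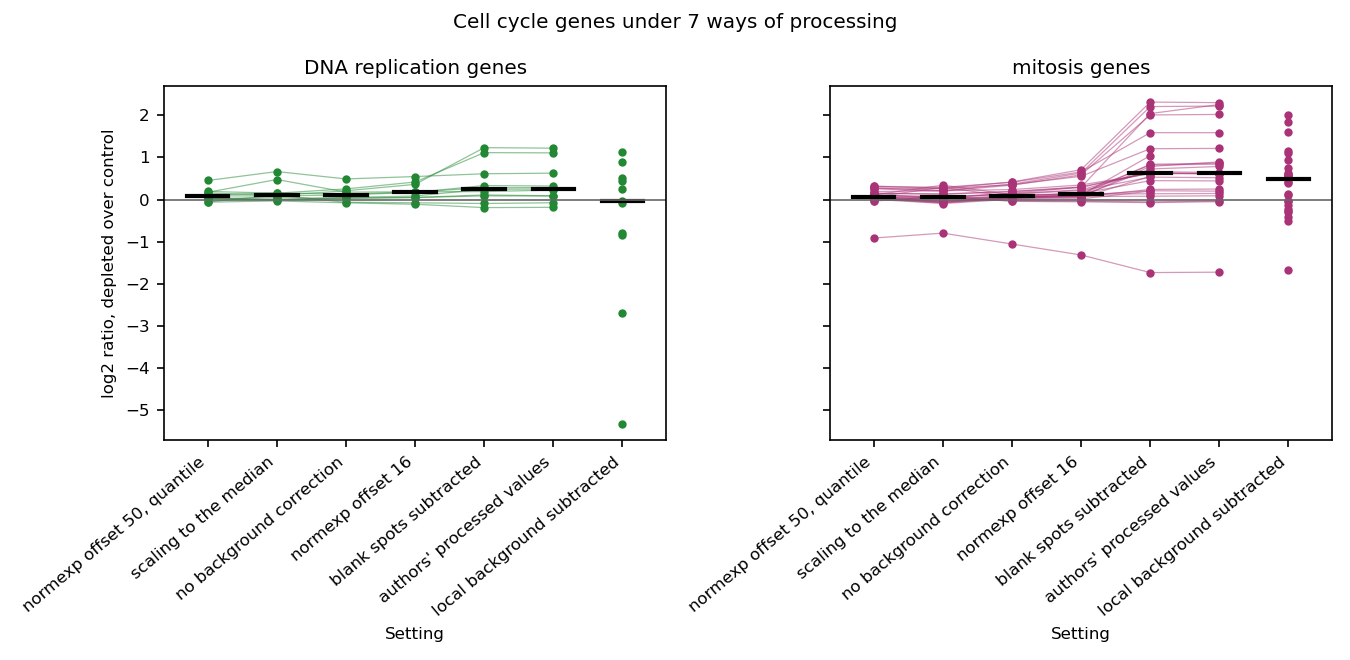
Log2 ratio (depleted over control) of each DNA replication gene (left, green) and mitosis gene (right, purple) under 7 ways of processing, with the median as a black bar; lines join a gene across the first 6. Mitosis genes have a median of 0.06 with normexp and an offset of 50, 0.63 with the blank spots subtracted and 0.62 in the authors' processed values, and Aurka is the lowest purple point in each of the 7 settings.

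The size of the difference depended on how background was handled. With an offset of 50 the median offset-corrected log2 ratio was 0.06 for 26 mitosis genes and 0.09 for 11 DNA replication genes, against 0.00 for all 18498 genes, and 0 of 37 members reached 2-fold, against 0.492% of genes higher and 0.427% lower. In that setting 23 mitosis genes were higher and 3 lower (Aurka, Cenpa, Cenpf). The 5 that were below background in control (Bub1, Cenpe, Prc1, Cep55, Ect2) count as higher there. They were kept through the depleted array alone, so their direction carries no weight. Of the 21 mitosis genes above background on both arrays 18 were higher and 3 lower. Scaling to the median in place of quantile normalization put 17 mitosis genes higher and 9 lower: Cenpa and Cenpf turned positive, and Plk1, Bub1, Cenpe, Kif11, Kif4, Prc1, Ect2 and Ttk turned negative, all between -0.09 and 0.08. Among DNA replication genes it turned Mcm4 to 0.10 and Cdc6 to -0.01. Subtraction of the scanner's local background also put 17 mitosis genes higher and 9 lower, and over all 37 members 22 higher and 15 lower, with a median of -0.04 for the DNA replication genes. Cdk1, Ccna2, Ccnb2, Top2a, Birc5, Rrm2, Mcm5 and Mcm7 were higher and Aurka lower under each of the alternatives except subtraction of the scanner's local background, which put Top2a at -0.22 and Mcm7 at -0.85; that background column exceeded the spot itself for 2 members, Mcm3 and Pcna, on the depleted array. The filter at the median intensity left out Ccna2, Ccnb2, Top2a, Rrm2 and Mcm5, which have no value there.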

How the data were processed

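Per the labels' protocols, total RNA of frozen gastrocnemius was converted to amino allyl RNA and labelled with Cy5. The deposited scanner values are spot intensities at 635 nm, joined from 3 scan gains, without background subtraction, per the file headers. The deposited processed values are also intensities: set against the spot medians they are a straight line on each array, with a factor of 1.27 (control) and 0.939 (depleted) and a zero at 36.25 and 36.96, close to the mean of the blank spots. The authors' software is not given in the sources used here.

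Spot medians were corrected with normexp (offset 50) in limma 3.58.1 under R 4.3.3 and quantile-normalized. A gene was its brightest probe. A probe was above background past the mean of the blanks plus 2 SD. Genes above it on at least 1 array were kept, and a value under it was raised to the lowest value over it, unless already higher. The procedure was tested on simulated data in which only probes well above the blanks were changed, so changes of dim probes were not covered. Summaries used Python 3.11.15, numpy 2.4.6, pandas 2.3.3 and matplotlib 3.10.9. All 37 members matched RefSeq by Entrez identifier. Of the members 32 were above background on both arrays and 37 on the depleted array.

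The members and lists were chosen with earlier results of these data known. Named outside the list are Pdgfra and, of each other list, the highest and lowest offset-corrected ratio. Incenp, Cdca8, Tubb5, Mcm10, Chaf1b and Ccne1 were added after their values were seen. The same holds for the cell type markers Lyz2, Csf1r, Cldn5, Cdh15, Dcn and Dpp4. The alternatives were offset 16, no correction, subtraction of blanks or of local background, cyclic loess, scaling to the median, the authors' values, 4 filters, the mean of a gene's probes and thresholds of 1.5-fold and 3-fold.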

Additional observations from a re-analysis of the deposited data

How the results depend on the processing

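No paired analysis was possible because there was a single array for each genotype, and no replicate could be left out. A list's median was taken as moved where it changed by more than the technical SD of 0.19. That SD belongs to a ratio of 2 single spots and is not the error of a list's median, so it is a rule of thumb here. The median of the DNA replication genes, 0.09, moved by less than the technical SD under all 12 alternatives. It still rose to 0.25 in the authors' processed values, and its sign turned with the local background subtracted (-0.04). That of the mitosis genes, 0.06, was 0.63 after subtraction of the blank spots, 0.48 with the local background subtracted and 0.62 in the authors' processed values, and moved by less than the technical SD under the others. Genes at least 2-fold higher numbered 91 and lower 79, 53.5% higher. They numbered 163 higher with an offset of 16, 503 and 360 after subtraction of the blank spots, 1949 and 2021 with the local background subtracted, 216 and 38 (85.0% higher) with scaling to the median and 522 and 355 in the authors' processed values. At 1.5-fold they numbered 363 and 282 and at 3-fold 27 and 17, by construction. The offset, by construction, shrinks ratios of dim probes; other causes were not tested. The limit at the brightest negative control spot was chosen with the data in view; 11 members did not exceed it in control and 6 in depleted muscle, which limits what can be said of their folds.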
